A study of Mus musculus with 8 samples.

Results

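Ces1d and 9 genes of triglyceride breakdown and lipid droplets were examined among the 24411 gene symbols counted in the hearts of 8 mice. The 10 genes are the carboxylesterase Ces1d, the perilipins Plin2, Plin3, Plin4 and Plin5, the lipases Pnpla2, Lipe and Mgll, and the lipase regulators Abhd5 and G0s2. They were selected on the difference between genotypes in these same hearts, Ces1d for the size of its decrease. Their levels and fold changes between genotypes are therefore given as a description, without p-values. All 10 passed the filter on low counts, so none is left out.

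Hearts came from 4 MerCreMer control mice and 4 mice with a cardiac-specific knockout of Yin-Yang 1 (YY1 KO), a transcription factor that can activate or repress its targets. MerCreMer is a Cre recombinase that stays inactive until a ligand is given. All mice are labelled C57BL/6 and male, and all had transverse aortic constriction, which narrows the aorta and loads the left ventricle, 1 week before collection. No heart without the operation was analysed here. The sources used here do not give the ages of the mice, the promoter that drives the recombinase, its ligand or the allele that it cuts. Polyadenylated RNA of each heart made 1 library, and 14582605 to 16000455 reads per library were assigned to genes. The targeted gene Yy1 stood at 33.8 to 37.2 CPM (counts scaled to library size with TMM factors) in controls and at 18.0 to 23.8 CPM in knockouts (log2 fold change −0.78 ± 0.10 SE, edgeR adjusted p = 0.000769). Against the label, 4 libraries carried Xist at 138 to 219 CPM with Y-linked genes at no more than 0.134 CPM (for these genes scaled to library size alone). The other 4 carried Y-linked genes at 162 to 196 CPM. Each genotype held 2 Xist-positive hearts (controls 1 and 4, YY1 KO 1 and 4) and 2 Y-positive hearts. In whole heart, fewer cells of a type and less RNA per cell cannot be told apart.

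Cardiomyocytes store fatty acids as triglyceride in lipid droplets. The droplet surface is coated by perilipins, which hold lipases and their regulators in place. ATGL (gene Pnpla2), activated by CGI-58 (Abhd5) and inhibited by G0S2, removes the first fatty acid, hormone-sensitive lipase (Lipe) acts on the diglyceride, and monoacylglycerol lipase (Mgll) releases the last fatty acid. Fatty acids set free in this way feed mitochondrial oxidation and also act as ligands for PPAR transcription factors. Ces1d, known also as triacylglycerol hydrolase, is an esterase of the endoplasmic reticulum studied mostly in liver and fat.

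Of the 10 genes, 4 were called lower in the knockout (Ces1d, Plin5, G0s2 and Plin2) and 0 higher. A call is a Benjamini-Hochberg adjusted p below 0.05 in the edgeR fit over all genes. None was higher at an unadjusted p under 0.05 either, nor in DESeq2 or limma-voom. Over all 13506 tested genes, 17.3% were called lower and 21.6% higher, in all 38.9%. The median log2 fold change of the 10 was −0.27, against 0.01 over all tested genes. As the genes were chosen with this contrast in view, nothing is read from these counts. For the same reason, whether a single member passes the threshold, here or under an alternative, only describes the fit and is no test. The groups did not overlap for the same 4 genes, where 16.5% of all tested genes had every knockout below every control, 21.8% had every knockout above, and 38.3% had either.

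**Figure D1:**
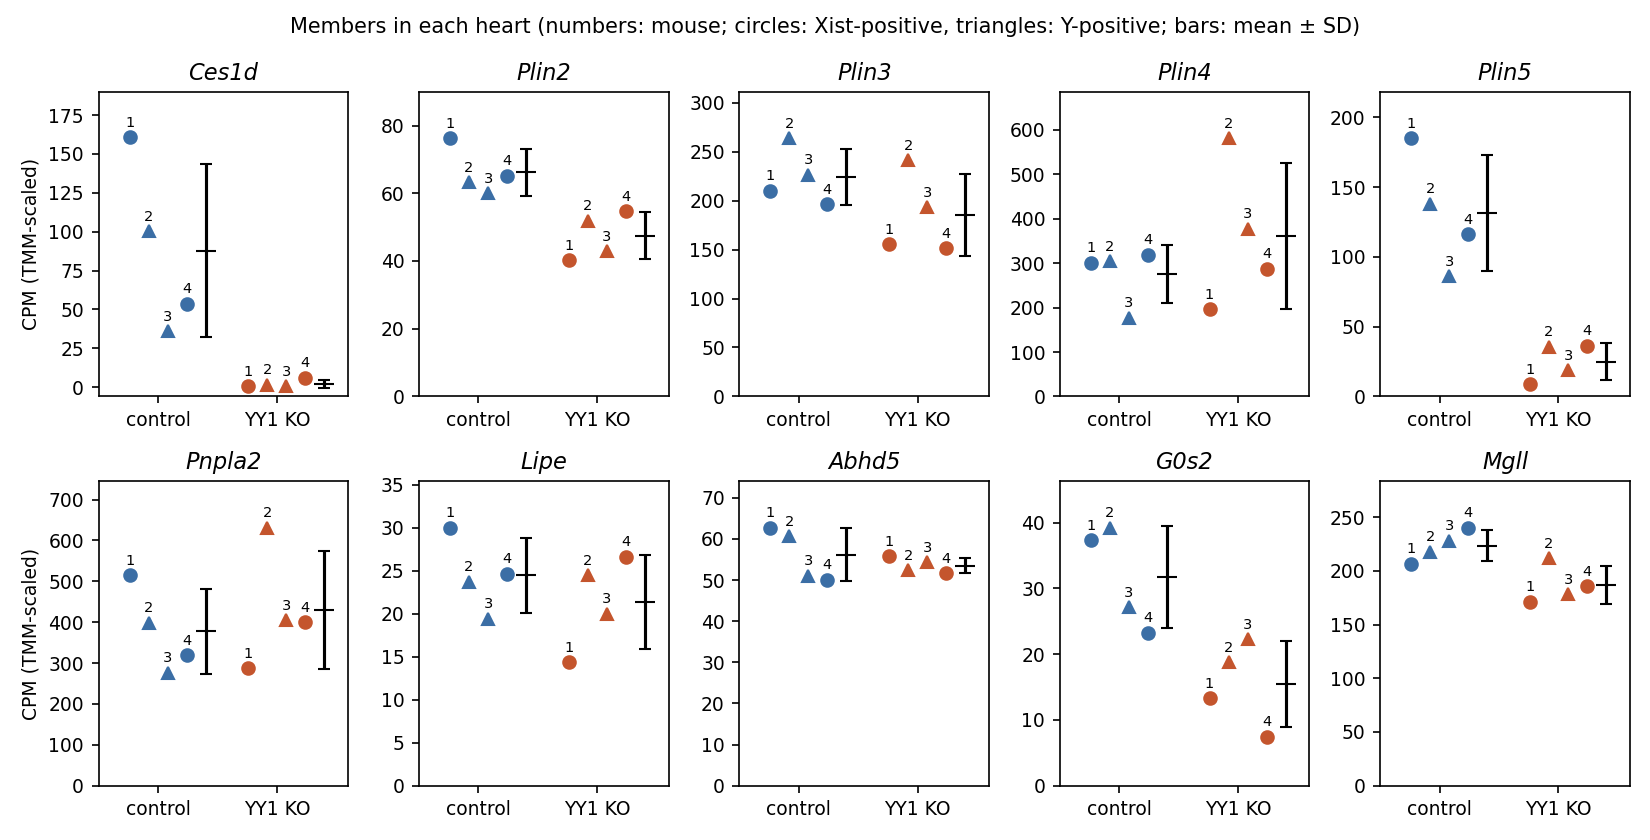
Level of each of the 10 genes in every heart, in CPM after TMM scaling on a linear axis, with the mean and SD of each genotype (n = 4) as black bars. Numbers name the mouse, circles are Xist-positive and triangles Y-positive hearts. Ces1d, Plin2, Plin5 and G0s2 separate the genotypes, and the other 6 genes overlap.

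Ces1d was abundant but uneven in control hearts and low in every knockout heart. It stood at 161, 100.5, 36.1 and 53.6 CPM in controls 1 to 4. In YY1 KO 1 to 4 it stood at 0.653, 1.43, 0.715 and 5.99 CPM. The highest knockout lay well below the lowest control, and the knockout mean was 2.50% of the control mean (2.19 ± 2.55 against 87.8 ± 55.8 CPM, mean ± SD, n = 4). In reads, 5115 were counted in the controls together and 139 in the knockouts. The log2 fold change was −5.31 ± 0.75 (SE), and −6.56 without YY1 KO 4, the knockout heart with the most Ces1d. That heart had the most Yy1 of the knockouts (23.8 CPM), whereas control 1, with the most Ces1d of the controls, had the least Yy1 of the controls (33.8 CPM). Ces1d (GENCODE ENSMUSG00000056973.6) lies on mm10 chromosome 8, 93166068 to 93197838, minus strand. Of its reads, 1.33% lay on the opposite strand.

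Ces1d supplied most carboxylesterase reads in control hearts, and the other family members stayed few in knockouts. It made up 84.1 to 96.3% of the reads of all 18 carboxylesterase genes listed in the tables in controls and 9.82 to 47.8% in knockouts. Ces2e was next, with 257 reads in controls and 93 in knockouts together. Ces2g had 162 and 176. The other Ces1 genes were near or at 0, with 46 reads over the 8 libraries for Ces1e, 8 for Ces1a, 1 for Ces1g and 0 for Ces1b, Ces1c and Ces1f. Reads that map to several genes are not counted, and 1.08% of the 50-base stretches of the Ces1d transcripts also occur in another gene (Ces1b, Ces1f or Ces1g). Only Ces2e and Ces2g of the family passed the filter besides Ces1d, and edgeR called neither (Ces2e log2 fold change −1.56, adjusted p = 0.0756, and Ces2g 0.03, adjusted p = 0.924). For Ces2e the adjusted p was 0.0446 without control 1 and 0.0473 without YY1 KO 4, and DESeq2 and limma-voom called it lower (adjusted p = 0.0325 and 0.0416). It was also the 1 gene of the list at an unadjusted p under 0.05 in edgeR.

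The spread of Ces1d between control mice was itself large. Its coefficient of variation there was 63.6%, above that of 99.6% of the 3212 tested genes whose control mean lay within 2-fold of its own (median 9.67%). The genes that varied most like Ces1d within genotypes were the 5 genes with the highest Pearson r to Ces1d over the 8 hearts after the mean of each genotype was removed, among 9138 genes with a mean of at least 10 CPM. They were H2-Ke6 (r = 0.991), also called Hsd17b8 and part of mitochondrial fatty acid synthesis, the mitochondrial peroxidase gene Prdx3 (0.988), Chchd10 (0.984) and Fundc2 (0.983) of mitochondria, and the ephrin receptor gene Epha4 (0.982). The median r over all compared genes was 0.03. By plain r over the 8 hearts, which includes the genotype difference, the 5 were H2-Ke6 (0.998), Prdx3 (0.998), Fundc2 (0.998), the mitochondrial hydrolase gene Hint2 (0.996) and the complex I gene Ndufc1 (0.996). These values describe 8 points that share library depth and scaling, and the highest of 9138 values of r is high by selection. Ces1d itself rested on 11, 21, 11 and 96 reads in YY1 KO 1 to 4. Of the 8 hearts, YY1 KO 4 lay furthest from its genotype mean (1.95 in log2 CPM).

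**Figure D2:**
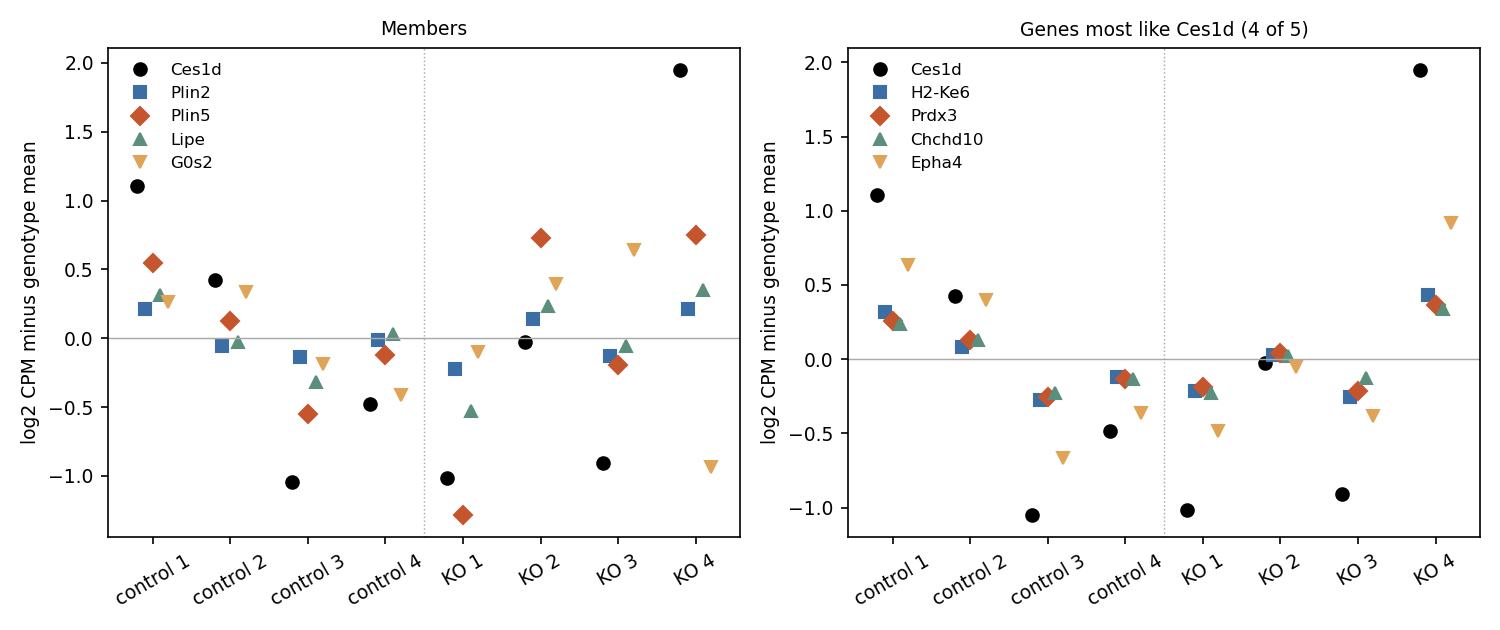
Deviation of each heart from its genotype mean, in log2 CPM with a prior count of 2, for members (left) and for Ces1d with 4 of the 5 genes most like it (right). Control 1 and YY1 KO 4 were the high hearts for Ces1d, at 1.10 and 1.95 above their genotype means, and also for Plin2 and Plin5, whereas G0s2 was lowest in YY1 KO 4.

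Among the other members, Plin2 (r = 0.86), Lipe (0.82) and Plin5 (0.79) deviated with Ces1d across the 8 hearts once genotype means were removed. Pnpla2 (0.51), Abhd5 (0.30), Plin4 (0.24), Mgll (−0.07), Plin3 (−0.17) and G0s2 (−0.37) did so less or in the opposite sense. For Yy1 the value was 0.56. The same few Ces1d reads in knockouts underlie all these values.

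Among the perilipins, Plin5 and Plin2 were called lower, and Plin3 and Plin4 were not called. Plin5, the perilipin of oxidative tissues that links droplets to mitochondria and binds ATGL and CGI-58, stood at 185, 137.9, 86.1 and 116 CPM in controls 1 to 4. In YY1 KO 1 to 4 it stood at 8.78, 35.7, 18.8 and 36.3 CPM. Every knockout lay below the lowest control, and YY1 KO 1 was the lowest heart. The log2 fold change between the genotypes was −2.40 ± 0.42. Plin2, the perilipin found on droplets of most tissues and degraded when no droplet binds it, stood at 76.2, 63.2, 59.9 and 65.2 CPM in controls. In knockouts it stood at 40.2, 51.9, 42.9 and 54.7 CPM. The groups of Plin2 did not overlap, but the gap was narrow, and its log2 fold change of −0.48 ± 0.12 was the smallest of the 4.

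Plin4 and Plin3 did not separate the genotypes. Plin4, a coat protein of new droplets abundant in fat and muscle, stood at 301, 305, 178 and 319 CPM in controls and at 197, 581, 378 and 288 CPM in knockouts. Control 3 and YY1 KO 1 were the low hearts and YY1 KO 2 the high one, and the log2 fold change was 0.39 ± 0.32. Plin3, which moves between cytosol and droplets, ranged from 196 to 263 CPM in controls and from 151 to 241 CPM in knockouts (log2 fold change −0.27 ± 0.16). It passed the threshold only without YY1 KO 2, where its log2 fold change was −0.43.

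Counted per length of exon, the shares of Plin5 and Plin4 among the 4 perilipin transcripts did not overlap between genotypes. Plin5 made up 27.7 to 40.6% of their summed RPKM (CPM per kilobase of exon) in controls and 4.63 to 14.2% in knockouts. Plin4 made up 20.7 to 30.5% in controls and 37.5 to 51.2% in knockouts. All shares are parts of the same sum, so a lower Plin5 level by itself raises the share of Plin4. The Plin4 share is therefore not a result separate from the fall of Plin5. The level of Plin4 itself overlapped between genotypes, at 30.7 to 55.3 RPKM in controls and 34.1 to 101 RPKM in knockouts. Shares of Plin3 (25.5 to 40.2% and 32.5 to 45.3%) and Plin2 (8.72 to 11.5% and 7.53 to 12.7%) overlapped. The summed level overlapped as well, at 149 to 218 RPKM in controls and 90.9 to 196 RPKM in knockouts.

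**Figure D3:**
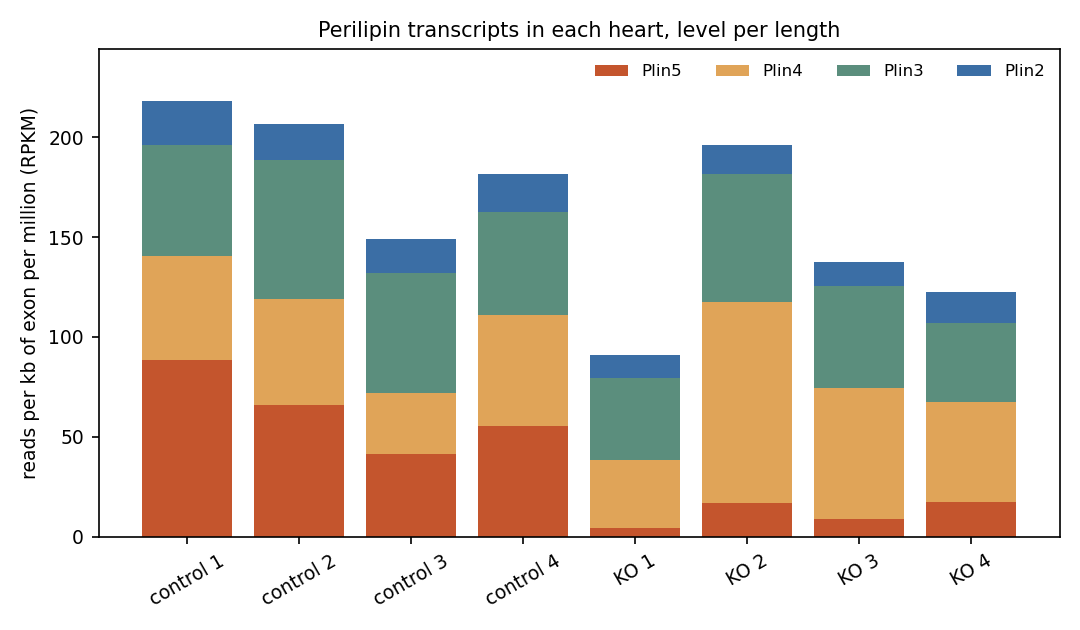
Level per length (RPKM) of Plin5, Plin4, Plin3 and Plin2 stacked for each heart, from counts irrespective of strand and merged exons of GENCODE M21. The Plin5 segment spans 41.3 to 88.5 RPKM in controls and 4.21 to 17.4 RPKM in knockouts, whereas the Plin4 segment was tallest in YY1 KO 2.

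Plin5 and Plin4 are neighbours on chromosome 17. Plin5 (56111601 to 56117596) and Plin4 (56100591 to 56109803) are transcribed from the minus strand with 1.80 kb and 0 protein-coding genes between them, and Plin3 (56277476 to 56292873) lies 160 kb further along. The sequences before the starts of the perilipin genes are shown as a description, and a link of motif matches to calls was not tested. They were picked after Plin5 was seen to be called lower and Plin4 not, and their core letters of the YY1 motif to differ. They are from RefSeq (GRCm38.p6, which is mm10), read 5′ to 3′ from 250 bases before the start, and stop where an exon annotated by GENCODE begins. The RefSeq start of Plin3 lies inside its longer GENCODE gene. Capitals mark ATGGC on either strand, read as GCCAT on the other.
Plin5 (chr17:56117597-56117798, minus strand): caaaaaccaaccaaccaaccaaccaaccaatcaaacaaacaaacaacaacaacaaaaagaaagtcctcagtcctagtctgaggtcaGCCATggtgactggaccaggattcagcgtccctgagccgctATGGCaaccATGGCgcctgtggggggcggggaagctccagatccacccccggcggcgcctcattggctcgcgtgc
Plin4 (chr17:56109804-56110032, minus strand): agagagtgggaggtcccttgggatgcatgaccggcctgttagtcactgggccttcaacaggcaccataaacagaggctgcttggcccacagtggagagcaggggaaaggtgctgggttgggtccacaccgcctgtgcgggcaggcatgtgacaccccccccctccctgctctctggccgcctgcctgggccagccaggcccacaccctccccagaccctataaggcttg
Plin3 (chr17:56290512-56290761, minus strand): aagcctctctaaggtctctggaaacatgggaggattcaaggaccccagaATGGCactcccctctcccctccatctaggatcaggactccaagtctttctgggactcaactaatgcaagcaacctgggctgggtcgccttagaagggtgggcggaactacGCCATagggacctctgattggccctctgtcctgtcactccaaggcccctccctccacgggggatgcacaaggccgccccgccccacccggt
Plin2 (chr4:86670061-86670309, minus strand): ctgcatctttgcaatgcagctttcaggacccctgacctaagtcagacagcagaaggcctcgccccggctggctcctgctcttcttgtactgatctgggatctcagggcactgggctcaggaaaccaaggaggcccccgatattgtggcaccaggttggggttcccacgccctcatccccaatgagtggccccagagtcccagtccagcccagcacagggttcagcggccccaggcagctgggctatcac
Before this start Plin5 held 3 matches, 164, 123 and 114 bases upstream, and before its second start, 250 bases downstream, 2. Plin3, which was not called, held 2 matches. Plin4, which was not called, and Plin2, which was called lower, held 0. In the same 250 bases, 32.9% of 32851 RefSeq promoters held at least 1 match, 7.27% at least 2 and 1.24% at least 3. Of the other members with an entry, Pnpla2 held 1 and G0s2, Abhd5, Lipe and Mgll held 0. Over the full windows of 300 bases, from 250 before to 50 after each start, none of the 12 windows of the 9 members matched held the longer YY1 motif AANATGGC (6.05% of all promoters), the DR1 element of nuclear receptors, which is AGGTCA repeated after 1 base (0.0396%) or TCAAGGTCA of estrogen-related receptors (0.423%), each searched on both strands. Ces1d has no entry. These matches describe letters, and binding was not measured.

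Neither the lipases of the main pathway nor the activator Abhd5 were called different between genotypes. Pnpla2 was the most abundant member per length in both, at 125 ± 34.6 RPKM in controls and 143 ± 47.7 RPKM in knockouts. It stood at 515, 398, 277 and 320 CPM in controls and at 287, 631, 404 and 399 CPM in knockouts. The ranges overlapped, with YY1 KO 2 above every control (log2 fold change 0.19 ± 0.26). Its activator Abhd5 had the fold change nearest to 0, at 50.1 to 62.8 CPM in controls and 51.6 to 55.8 CPM in knockouts, with a log2 fold change of −0.07 ± 0.09. Mgll stood at 207, 218, 228 and 240 CPM in controls and at 171, 212, 178 and 186 CPM in knockouts. All but YY1 KO 2 lay below the lowest control, and the log2 fold change was −0.26 ± 0.10. Mgll missed the threshold but passed it without control 1 or YY1 KO 2 (log2 fold changes −0.30 and −0.32), with DESeq2, and with RLE or upper quartile scaling.

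Lipe was the least abundant of the lipases of the main pathway, and its count depends on strand. It averaged 24.4 ± 4.36 CPM in controls and 21.4 ± 5.42 CPM in knockouts (log2 fold change −0.19 ± 0.20). The annotated antisense gene 4732471J01Rik spans the whole of Lipe on the opposite strand, and reads in both are discarded when strand is ignored. On the sense strand 2485 reads were counted in controls and 2265 in knockouts, against 1456 and 1337 irrespective of strand. The sense level was 7.08 ± 1.32 RPKM in controls and 6.15 ± 1.64 RPKM in knockouts. The genotypes overlapped on either count. For the other 9 members the sense reads were 96.1 to 99.6% of the count in each genotype.

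G0s2, the inhibitor of ATGL, was lower in knockout hearts. It stood at 37.3, 39.2, 27.2 and 23.3 CPM in controls 1 to 4. In YY1 KO 1 to 4 it stood at 13.3, 18.8, 22.3 and 7.42 CPM. The groups did not overlap, but YY1 KO 3 lay only just below control 4. The log2 fold change was −1.04 ± 0.31, and the threshold was missed without control 1, control 2 or YY1 KO 1 (log2 fold changes −0.96, −0.93 and −0.97). Per length, Pnpla2 exceeded G0s2 by 2.93 to 3.98 times in controls and by 5.23 to 15.5 times in knockouts. Ces1d was at 16.7 to 39.9% of the Pnpla2 level per length in controls and at 0.225 to 1.91% in knockouts.

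In control hearts the order of mean level per length was Pnpla2, Plin5, Plin3, Plin4, Mgll, Ces1d, G0s2, Plin2, Abhd5 and Lipe. Pnpla2 lay above Plin5 in every control, whereas the values of Plin5, Plin3, Plin4, Mgll, Ces1d and G0s2 overlapped between neighbours in this order. G0s2, Plin2, Abhd5 and Lipe did not overlap with each other for counts irrespective of strand. On the sense strand, Lipe (5.46 to 8.63 RPKM) overlapped with Abhd5 (8.29 to 10.3 RPKM) in controls. In knockout hearts the order was Pnpla2, Plin4, Plin3, Mgll, G0s2, Plin2, Plin5, Abhd5, Lipe and Ces1d, so that Plin5 went from the second to the seventh place and Ces1d from the sixth to the last. There, Mgll and G0s2, and Abhd5 and Lipe, were the neighbours whose values did not overlap. Ces1d lay below Lipe within each of the 4 knockout hearts, at 0.926 ± 1.08 RPKM, and the 2 ranges overlapped for counts irrespective of strand. On the sense strand they did not, with Lipe at 4.15 to 7.69 RPKM and Ces1d at 0.276 to 2.47 RPKM.

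**Figure D4:**
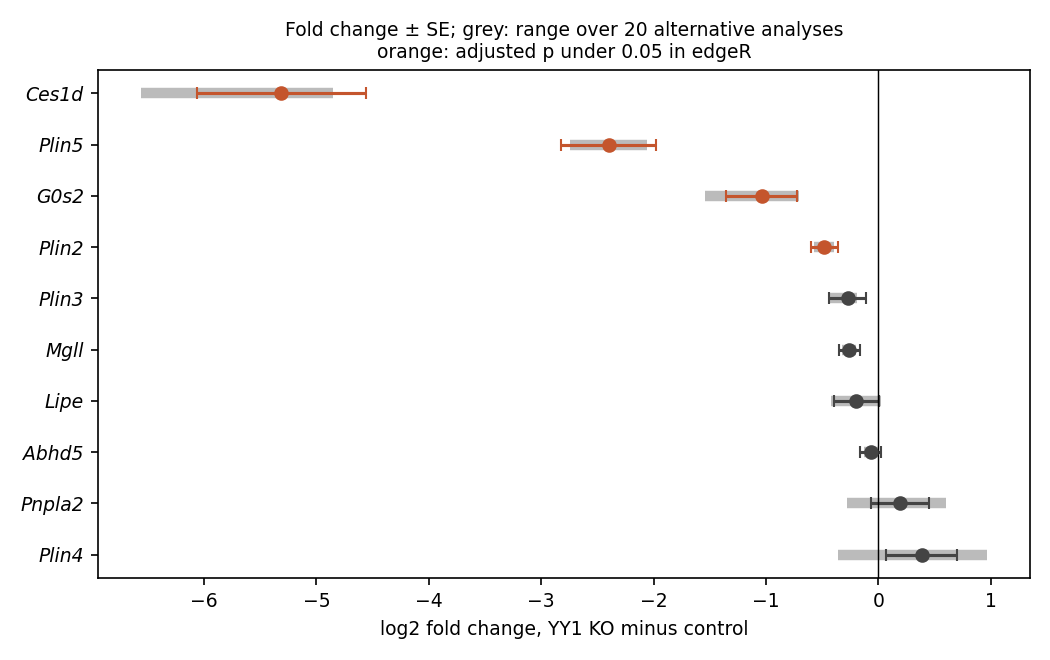
Log2 fold change of each member, YY1 KO minus control, with its SE (n = 4 per genotype) from the edgeR fit, and in grey the range over 20 alternative analyses. The ranges of Ces1d, Plin5, G0s2 and Plin2 lie below 0, as do those of the uncalled Plin3 (−0.43 to −0.19), Mgll (−0.32 to −0.20) and Abhd5, whereas the ranges of Plin4 (−0.36 to 0.97), Pnpla2 (−0.28 to 0.60) and Lipe (−0.42 to 0.03) cross it.

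The contrast between Xist-positive and Y-positive hearts played no part in choosing the genes, so it could be tested. With genotype in the model, edgeR called 0 of the 10 members, and 6 of 13506 genes (0.0444%). By the unadjusted threshold of 0.05 edgeR called 1 member, Plin3, lower in Xist-positive hearts (log2 fold change −0.39 ± 0.11), beside 457 genes (3.38%) over the whole table. The difference between genotypes was not called different between the 2 kinds of heart for any member, nor for any of the 13506 genes (0%). The lowest adjusted p of this interaction was 0.812 in edgeR, and 1 member and 702 genes (5.20%) had an unadjusted p under 0.05. That member was Plin4. Its mean was 310 CPM in control and 242 CPM in knockout hearts among the Xist-positive, and 241 and 479 CPM among the Y-positive, a difference of −1.35 ± 0.46 on the log2 scale (edgeR adjusted p = 0.812). With 2 hearts of each kind per genotype, only large differences could be found.

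Further genes of the pathway were taken from 7 lists set by their textbook roles. The lists were drawn up with earlier results of these hearts known, so their counts and adjusted p-values are not independent evidence of a direction. Of 98 listed genes, 97 were found in the tables and 71 passed the filter on low counts. Among these 71, 19 were lower and 6 higher at an edgeR adjusted p under 0.05, beside 17.3% and 21.6% of all tested genes. Their median log2 fold change was −0.26, against 0.01 over all tested genes. The count of lower genes was 14 to 24 when 1 library was left out.

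Of 16 tested genes that build triglyceride and sterol esters, 4 were lower, beside 17.3% of all tested genes, and 0 higher (1 higher at an unadjusted p under 0.05, 0 in DESeq2 and limma-voom), with a median log2 fold change of −0.26. Lpin1, which makes diglyceride and also acts as a coactivator in the nucleus, fell to 29.7% of the control mean (a log2 difference of −1.75 ± 0.23, edgeR adjusted p = 0.000739). Gpam, the mitochondrial acyltransferase of the first step, fell, with 62.7 ± 11.7 CPM in knockouts against 169 ± 21.7 CPM in controls (a log2 difference of −1.43 ± 0.15, edgeR adjusted p = 0.000324). Dgat2, which adds the last fatty acid, fell, with 133 ± 45.1 CPM in knockouts against 329 ± 90.2 CPM in controls (a log2 difference of −1.31 ± 0.29, edgeR adjusted p = 0.00708). For the other enzyme of that step, Dgat1, the log2 fold change was −0.08. Agpat2 was lower by a log2 fold change of −0.42, a call lost without control 1 or 2 or YY1 KO 1, 3 or 4 (edgeR adjusted p = 0.0676 to 0.105). Agpat3 (−0.44, edgeR adjusted p = 0.0605) passed without control 3 or 4 (adjusted p = 0.0324 and 0.0490). Without control 3 or YY1 KO 2, 1 gene of this list was higher.

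Of 14 tested genes of droplet assembly and coat, 5 were lower and 2 higher (median log2 fold change −0.15), beside 17.3% and 21.6% of all tested genes. Fitm1, an endoplasmic reticulum protein of heart and skeletal muscle that promotes droplet formation, fell, with 29.6 ± 3.88 CPM in knockouts against 72.9 ± 22.7 CPM in controls (a log2 difference of −1.30 ± 0.21, edgeR adjusted p = 0.00196). Bscl2, which encodes seipin (−0.66 ± 0.12), and Tmem159, which encodes its partner LDAF1 (−0.77 ± 0.15), form the site where droplets bud, and both fell (edgeR adjusted p = 0.00315 and 0.00476). Cav1, the caveolin of endothelium and other cells, fell as well (−0.88 ± 0.19, edgeR adjusted p = 0.00680). Aup1, a droplet protein of protein degradation, rose by 0.33 ± 0.07, and so did Cidea, a droplet fusion protein (0.79 ± 0.21; edgeR adjusted p = 0.00491 and 0.0154). Fitm2 (−0.76, adjusted p = 0.0998), Rab18 (0.21, 0.0770) and Pcyt1a (−0.22, 0.132) were not called by edgeR. Fitm2 passed without control 3 or YY1 KO 2 (adjusted p = 0.0450 and 0.0216), Rab18 without YY1 KO 4 (0.0411) and Pcyt1a without control 3 (0.0438).

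Of 11 tested lipases and regulators outside the list of members, 3 were higher and 1 lower (median log2 fold change 0.06), beside 21.6% and 17.3% of all tested genes. Nceh1, a cholesterol ester hydrolase, fell, with 118 ± 20.4 CPM in knockouts against 246 ± 42.7 CPM in controls (a log2 difference of −1.06 ± 0.16, edgeR adjusted p = 0.00137). The lipase genes Ddhd2 (0.76 ± 0.13), Daglb (0.75 ± 0.14) and Abhd6 (1.07 ± 0.27), of triglyceride, diglyceride and monoglyceride, rose (edgeR adjusted p = 0.00202, 0.00391 and 0.0122). Lpl, the lipase that frees fatty acids from circulating lipoproteins, was the most abundant gene of the list, at 5033 ± 1059 CPM in controls and 2775 ± 1191 CPM in knockouts. It missed the threshold (−0.86 ± 0.30, edgeR adjusted p = 0.0502) and passed it with RLE, upper quartile or no scaling beyond library size (adjusted p = 0.0480, 0.0427 and 0.0422), with DESeq2 and limma-voom, and without YY1 KO 2 (−1.15, adjusted p = 0.0139). In each of these the lower genes of the list were 2. The log2 fold change of Pnpla8 was 0.14 (edgeR adjusted p = 0.445).

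Of 5 genes of glycerol handling, 1 was lower and 0 higher (1 higher at an unadjusted p under 0.05, 0 in DESeq2 and limma-voom, 1 without YY1 KO 2). Their median log2 fold change was 0.20, and 17.3% of all tested genes were lower and 21.6% higher. Aqp7, the glycerol channel of fat and heart, fell, with 13.9 ± 7.79 CPM in knockouts against 33.8 ± 4.44 CPM in controls (a log2 difference of −1.28 ± 0.32, edgeR adjusted p = 0.0125), and the log2 fold change of Gpd1 was 0.34 (adjusted p = 0.249). In the list for signalling to lipases, 1 of 8 was higher and 0 lower (1 lower at an unadjusted p under 0.05, in DESeq2 and in limma-voom). This stands beside the same 21.6% and 17.3% of all tested genes, and the median log2 fold change was −0.12. Prkar1a, a regulatory subunit of protein kinase A, rose, with 1118 ± 91.6 CPM in knockouts against 787 ± 139 CPM in controls (a log2 difference of 0.51 ± 0.14, edgeR adjusted p = 0.0215), a call that did not hold when control 2 was left out (adjusted p = 0.0722) or YY1 KO 1 (0.0539). Without control 1, 2 genes of this list were lower, and without control 4 or YY1 KO 4, 1. The catalytic subunit gene Prkaca was at 330.0 ± 42.2 and 332 ± 30.9 CPM (0.01 ± 0.12), and the log2 fold change of Prkar2a was 0.13 (adjusted p = 0.184).

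PPAR factors and genes that respond to fatty acids were lower or not called. All 15 were tested, 8 were lower and 0 higher (0 at an unadjusted p under 0.05, 0 in DESeq2 and limma-voom). Over all tested genes 17.3% were lower and 21.6% higher. The median log2 fold change of the list was −0.88. The count of lower genes was 5 without control 2 or YY1 KO 1, 4 without YY1 KO 3 and 10 without control 3. In the whole table these fits gave 1818, 1863, 1668 and 2166 lower genes, against 2337 with all libraries. The list had 11 lower genes in DESeq2 (2808 in the whole table) and 7 in limma-voom (2302). Ucp3, a mitochondrial carrier induced by fatty acids, fell, with 3.98 ± 2.31 CPM in knockouts against 27.8 ± 16.8 CPM in controls (a log2 difference of −2.81 ± 0.58, edgeR adjusted p = 0.00543). Acot1, a thioesterase of the same response, fell, with 1.54 ± 1.00 CPM in knockouts against 12.3 ± 10.8 CPM in controls (a log2 difference of −3.00 ± 0.70, edgeR adjusted p = 0.00909). Without control 1 the log2 difference of Acot1 was −2.25. Fabp3, the fatty acid binding protein of heart, fell, with 1585 ± 342 CPM in knockouts against 2989 ± 310.2 CPM in controls (a log2 difference of −0.91 ± 0.18, edgeR adjusted p = 0.00393), and the receptor gene Rxra by 0.74 ± 0.11 on the log2 scale (edgeR adjusted p = 0.00137). Ppard (−0.35), Ppargc1a (−0.88) and the fatty acid transporter Cd36 (−0.73) were lower with edgeR adjusted p of 0.0238, 0.0367 and 0.0253. Each of these 3 calls was lost without some libraries. They were control 4 and YY1 KO 1, 2 and 3 for Ppard (adjusted p = 0.0545 to 0.0715), all but control 3 and YY1 KO 2 for Ppargc1a (0.0568 to 0.0931), and controls 1 and 2 and YY1 KO 3 for Cd36 (0.0504 to 0.0675). Ppara (−0.78, adjusted p = 0.0691), Pdk4 (186 against 373 CPM, 0.0651) and Slc25a20 (−0.56, 0.117) were not called by edgeR, although Ppara passed without control 3 (adjusted p = 0.0117) and Pdk4 without control 3 or YY1 KO 4 (0.0389 and 0.0132).

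**Figure D5:**
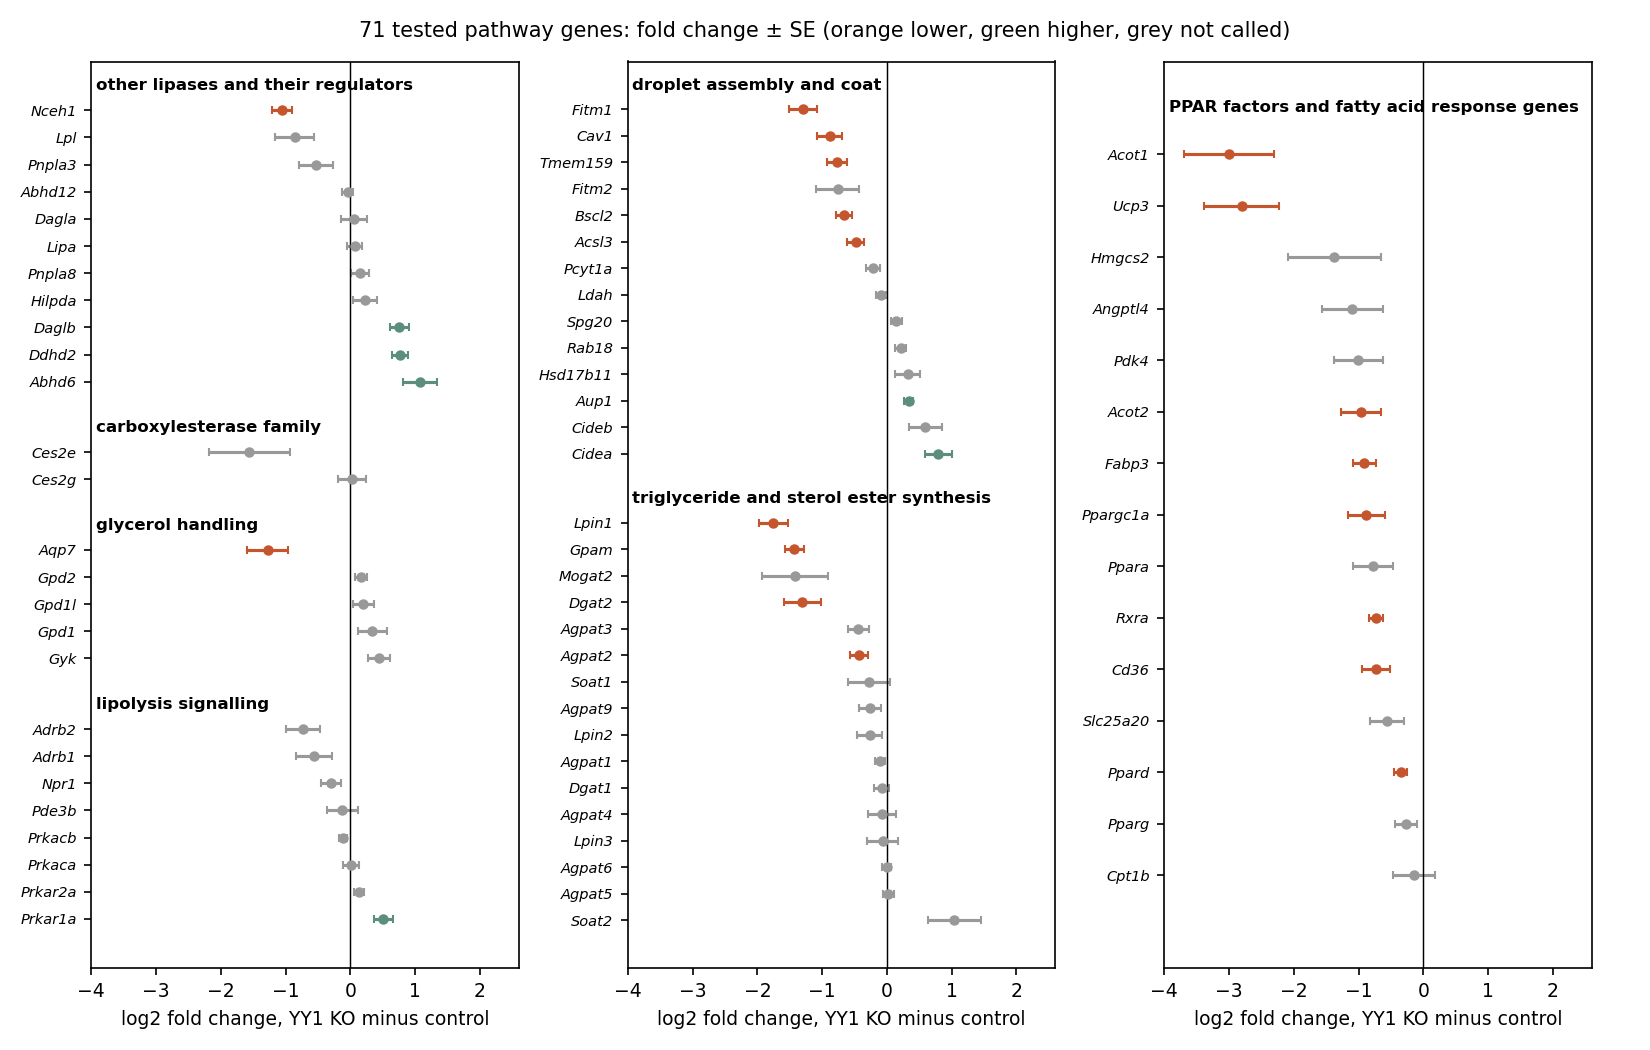
Log2 fold change ± SE, YY1 KO minus control, of the 71 tested genes of the 7 lists, from the edgeR fit with 4 hearts per genotype. Orange marks the 19 lower and green the 6 higher genes at an adjusted p under 0.05. All 15 genes of the PPAR list lie below 0, whereas the other lists spread to both sides.

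Markers of other cell types were counted in the same libraries, where 17.3% of all tested genes were called lower and 21.6% higher. Of 8 white adipocyte markers, all but Fabp4, which endothelium also expresses, stood at no more than 1.25 CPM in every heart, Adipoq at no more than 0.436 and Plin1 at no more than 0.187 CPM. The summed level of the list was 499 to 672 CPM in controls and 343 to 474 CPM in knockouts, nearly all of it Fabp4 (498 to 671 and 342 to 471 CPM). Of 5 brown fat markers, Ucp1 and Elovl3 were at no more than 0.0704 CPM, whereas mean levels in controls and knockouts were 34.0 and 59.0 CPM for Cidea (called higher), 8.36 and 10.9 CPM for Dio2 (not called by edgeR) and 132 and 71.8 CPM for Ppargc1a (called lower). Their sum was 120 to 241 CPM in controls and 114 to 171 CPM in knockouts. The 5 hepatocyte markers summed to at most 0.498 CPM in controls and 2.99 CPM in knockouts. Cardiomyocyte markers were abundant in every heart, their sum being 67440 to 89703 CPM in controls and 44367 to 64674 CPM in knockouts. The largest part was Myh6, at a mean of 39100 CPM in controls and 28471 CPM in knockouts, which was not called (edgeR adjusted p = 0.117). Of the 6 cardiomyocyte markers, Actc1 and Myl2 were called lower by edgeR. Tnnt2 (log2 fold change 0.31), Tnni3 (−0.52) and Ryr2 (−0.30) were not called. Of 4 endothelial markers, 3 were lower too (sum 936 to 1300 CPM in controls, 627 to 729 CPM in knockouts). Fibroblast (1 of 4 higher), macrophage and smooth muscle and pericyte markers (1 of 4 lower) overlapped in their sums. The part of these cell type differences in the values of the 10 genes was not tested.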

How the data were processed

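Each deposited table holds raw gene counts of 1 heart by symbol, made by the authors with Trimmomatic and STAR on mm10, per the submitters' processing notes. The sources used here give neither tool versions nor the gene annotation. Counts irrespective of strand were used, and sense-strand counts as an alternative. Reads not assigned to a gene made up 33.0 to 38.9% per library. They include reads that map to several places in the genome, 11.8 to 14.1% of all reads. None of them entered library sizes or tests.

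Genotypes were compared with edgeR 4.0.16 (R 4.3.3, TMM scaling, filterByExpr with a minimum count of 10, robust quasi-likelihood F test, Benjamini-Hochberg adjustment over 13506 genes, threshold 0.05). CPM values use library sizes after TMM scaling, and RPKM divides them by the merged exon length in GENCODE M21. Only the CPM of Xist and the Y-linked genes use library sizes without TMM factors. The alternatives were RLE, upper quartile and no scaling, DESeq2 1.42.0, limma-voom (limma 3.58.1), 2 other filters, sense-strand counts, the replicate number as a block, a term for Xist-positive hearts, each kind of heart alone, and each library left out. The contrast of Xist-positive with Y-positive hearts and its interaction with genotype were added after the data were seen. The members and lists were chosen with earlier results of these data known. Named pathway genes are, per list, up to 5 called genes with the smallest p and any with a mean of at least 100 CPM in a genotype; Dgat1, Cidea and Ces2e and Ces2g were named after their values were seen. Of the list symbols, 3 were matched through RefSeq synonyms. On simulated counts (4 against 4, 13394 genes, few of them changed), 56% of 2-fold and 13.1% of 1.5-fold changes were recovered. That fit made 73 calls, whereas 38.9% of tested genes were called between the genotypes. The adjusted threshold was therefore stricter in the simulation, and its shares do not give the recovery in these hearts. Each library is a separate mouse in the labels. Intervals other than the SD and SE were not computed.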

Additional observations from a re-analysis of the deposited data

Results flagged for a closer look

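Among the 22 groups of 4 hearts formed by the 10 members and Yy1 in each genotype, 2 had 1 heart far from the other 3, where chance alone gives about 1 in 20 groups. Ces1d was at 5.99 CPM in YY1 KO 4, and its gap to the next knockout was 0.855 of the range of the knockouts. Plin4 was at 178 CPM in control 3, with a gap of 0.872 of the range of the controls.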

How the results depend on the processing

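Over the 20 alternatives, the log2 fold change of Ces1d ranged from −6.56 (without YY1 KO 4) to −4.85 (without control 1) and was below 0 in each. The Y-positive hearts alone (2 against 2) gave 2 lower and 0 higher members, and 12 lower and 6 higher pathway genes. In the whole table that fit gave 1606 lower and 1730 higher genes. The Xist-positive hearts alone gave 0 lower members, 0 higher and 0 lower pathway genes and 0 higher and 0 lower genes in the whole table, so that fit says nothing about single genes. Plin4 was at 0.97 in the Y-positive and −0.36 in the Xist-positive hearts. Leaving out 1 library gave 3 to 6 lower and 0 higher members, 14 to 24 lower and 5 to 8 higher pathway genes, and 1668 to 2439 lower and 2192 to 2905 higher genes in the whole table. Under the other settings these counts stayed within 1.5 times of those reported. The labels number the mice 1 to 4 in both genotypes. Mice 1 and 4 were Xist-positive and mice 2 and 3 Y-positive in each genotype, so same-numbered hearts match in this. Deviations of same-numbered libraries correlated at −0.46, 0.34, −0.06 and 0.27, and control 1 correlated best with YY1 KO 2 (0.42). On these correlations the numbers were not taken to pair the mice, and the block served as an alternative. With the replicate block 4 members were lower and 0 higher, and 19 pathway genes were lower (16 shared with the fit without it) and 5 higher. Among all tested genes the fit with the block called 1816 lower and 2210 higher, against 2337 and 2911 without it. Ces1d was at −5.43 with the block. With 4 hearts per genotype, a gene that was not called may still differ.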
